A study of Rattus norvegicus with 36 samples.

Results

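The response of the rat mammary gland to N-nitrosomethylurea (NMU) was examined 6 h after treatment, for the genes that moved the same way in both strains of the study. Members were chosen by collection time alone: the 12 arrays at 6 h, of 36 in the series, with 12 further arrays at 1 d and 12 at 30 d. F344 (Fischer) and Cop (Copenhagen) rats were treated at 55 days of age with saline vehicle or with NMU, which gives 4 groups of 3 arrays at 6 h: F344 control, F344 NMU, Cop control and Cop NMU. The series text counts 18 rats of each strain, as many as it has arrays of each. No transgene or deletion is named for any group, and the sources used here give neither the dose of NMU nor the hour of collection.

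NMU is a methylating carcinogen that attaches methyl groups to DNA bases. F344 rats are susceptible and Cop rats resistant to the mammary tumours it causes. DNA damage stabilises the transcription factor p53, which switches on genes for cell cycle arrest, death receptors and repair. The mammary gland of a young virgin rat is a thin epithelial tree in a fat pad that also holds vessels, immune cells and, in some dissections, a lymph node or strips of muscle. Adipocytes of the fat pad make fatty acids and sterols under the SREBP factors, which insulin and feeding raise and fasting lowers.

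Genes of fatty acid and cholesterol synthesis fell, with Pnpla3, Elovl6, Insig1 and Acaca among the largest falls. Genes of T lymphocytes fell. The calgranulins S100a8 and S100a9, E-selectin and some metalloproteinases rose, with S100a9 the largest common rise. Cdkn1a and some other p53 targets rose, as did part of the glucocorticoid-induced and immediate early genes.

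The change of a probe set is the mean log2 value with NMU minus that of controls, averaged over both strains with strain as a covariate, 6 arrays a side. Of 19597 probe sets tested, 1545 (7.88%) were called by limma at an adjusted p under 0.05, 914 higher (4.66%) and 631 lower (3.22%). The median change of all tested probe sets was 0.04. Higher calls were 59.2% of all calls on the deposited values and 43.2% after quantile normalization, where the median was 0.00098 and 674 rose and 885 fell, so the balance of rises and falls depends on the scaling. Every called probe set had the same sign in both strains. The model gives both strains 1 shared NMU effect, so opposite changes count as spread and are seldom called. With 4 group means 2106 of 2292 calls had the same sign, and in the fit of all 36 arrays 1342 of 1413. A stricter count of the 1545 calls asked that the 3 NMU arrays lie on 1 side of the 3 control arrays in each strain. It left 985 probe sets, called common below, which is 63.8% of the calls: 574 higher (2.93% of those tested) and 411 lower (2.1%). Without regard to the call, 758 probe sets (3.87%) were separated upward in both strains and 516 (2.63%) downward. The common probe sets name 720 genes, 436 higher and 284 lower.

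Most common changes were small. Their median was 0.43 for rises and -0.60 for falls. Of the 720 genes, each by its common probe set of smallest p, 20 rose and 38 fell by more than 1 in log2. The median size of the common probe sets was 0.43 in F344 and 0.52 in Cop, and 634 of the 985 moved further in Cop. Tested alone, F344 gave 250 calls (1.28%) and Cop 2174 (11.1%). The F344 count rests on single arrays: it was 37 without F344 control replicate 2, 47 without F344 NMU replicate 1, 61 without F344 NMU replicate 2, 103 without F344 control replicate 3 and 149 without F344 control replicate 1. It was 136 without Cop NMU replicate 2 and 161 without Cop NMU replicate 3. The Cop count was 1194 without Cop control replicate 1, 1170 without Cop NMU replicate 2 and 1256 without Cop NMU replicate 3. The 115 probe sets called in both strains are 46.0% of the F344 list and 5.29% of the Cop list; 57 rose in both, 49 fell in both and 9 moved in opposite directions. The strain difference itself was called for 430 probe sets (2.19%), of which 31 are common ones. That count was 802 without Cop NMU replicate 1, 230 without Cop NMU replicate 2, 249 without Cop NMU replicate 3, 252 without Cop control replicate 1, 270 without F344 NMU replicate 2 and 273 without F344 control replicate 2. Over all tested probe sets the differences in F344 and in Cop, which share no array, had a correlation of 0.29 across probe sets, which are not independent replicates, and 58.2% had the same sign.

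**Figure D1:**
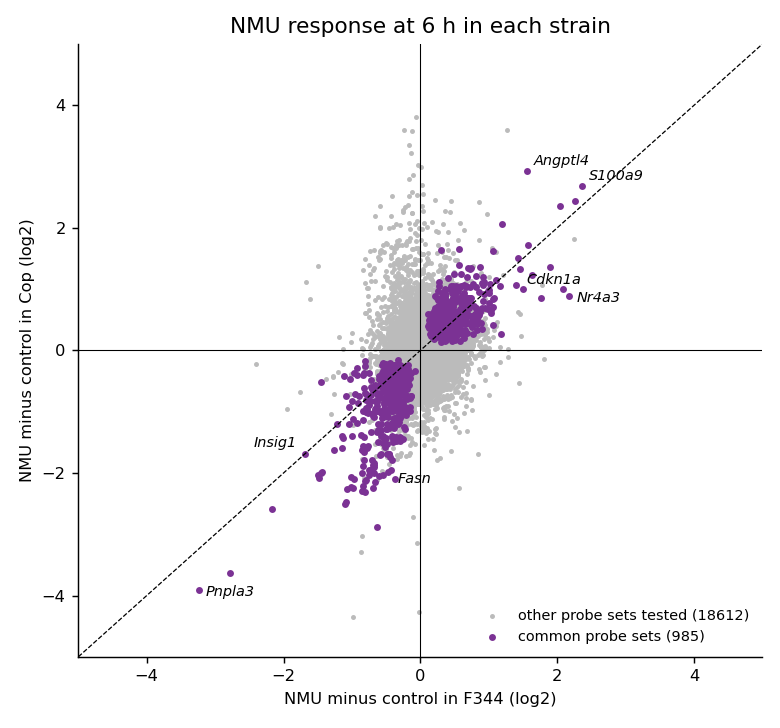
Each point is a probe set tested at 6 h, with the log2 difference of NMU minus control in F344 (horizontal) and in Cop (vertical), each a mean of 3 arrays against 3; the 985 common probe sets are purple and the dashed line marks equal change. Insig1 lies on the line at -1.69 in both strains, while Fasn lies below it.

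Arrays had medians between 5.67 and 5.77 and values between 2.58 and 14.2 on the log2 scale. The deposited values used here carry no measure of background, so a difference that rests on values below the array medians, such as S100a9 in controls or Pnpla3 in Cop NMU arrays, is given in log2 as deposited and not as a fold. Most markers of the labelled tissue passed the level filter: 22 of 23 luminal epithelial genes, 14 of 14 basal and 22 of 22 adipocyte genes on the array. So did 25 of 26 skeletal muscle genes and 11 of 11 B cell markers, against 4 of 10 neutrophil markers and 5 of 10 brown fat genes. Of 31099 probe sets, 57 of them controls left out, the filter kept 19597, so passing it does not by itself mark the tissue. A marker score, the mean deviation of a list's genes from their own means, showed that some cell types moved with the groups; in bulk tissue fewer cells of a type and less RNA per cell cannot be told apart. The T and NK cell score was 0.32, 0.26 and -0.03 in F344 controls against -0.34, -0.39 and -0.42 with NMU. In Cop it was 1.10, 0.65 and 0.93 in controls against 0.09, -1.09 and -1.08 with NMU, so Cop NMU replicate 1 stood apart from the other 2. With this score as a covariate, an alternative added after the data were seen, 69 probe sets were called and 43 of the 985 common ones kept their call, and the score itself does not overlap between NMU and control arrays of a strain. Named rises that kept their call in that fit were S100a8, S100a9, Nr4a3, Mmp12, Sele, Fam13a, Tmem140, Ephx1, Nupr1, Nfkbiz, Aen and Fas. Named falls that kept it were Elovl6, Nsdhl, Acss2 and Tenm4, although a second Elovl6 probe set lost its call (adjusted p = 0.0773). Cdkn1a was at 1.43 in that fit (adjusted p = 0.163). The main-effect call of Nfkbiz was lost in 6 of 12 fits without 1 array, and its second probe set was at -0.23, not called. The skeletal muscle score ranged from 0.86 to 1.94 in F344 controls, from -0.32 to 1.81 in F344 NMU, from -3.18 to -1.41 in Cop controls and from -0.92 to 0.08 in Cop NMU; with it as a covariate 2087 probe sets were called. Leaving out single arrays gave 844 to 1503 calls. The count was 844 without Cop control replicate 1, 846 without Cop control replicate 3, 852 without Cop NMU replicate 2, and 1101 without Cop NMU replicate 1.

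**Figure D2:**
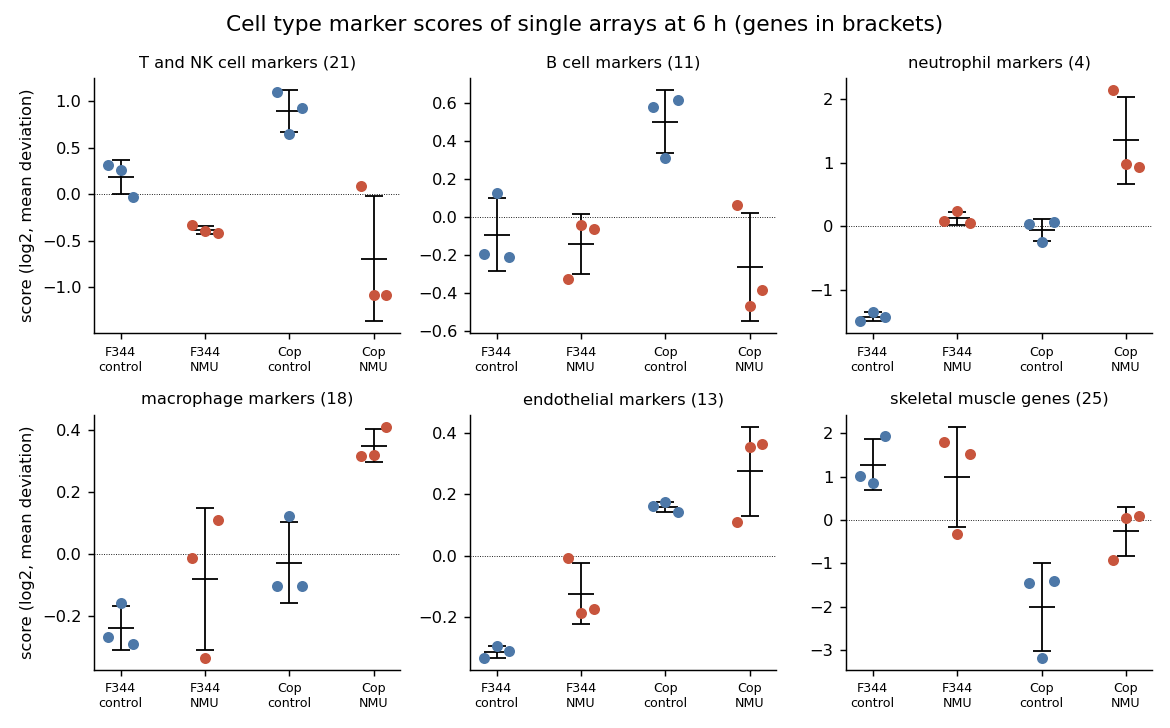
Marker scores of 6 cell type lists (vertical axis, log2, mean deviation from each gene's mean over the 12 arrays) for single arrays of the 4 groups; bars give mean and SD of 3 arrays. The T and NK cell score is lower with NMU in both strains without overlap. The skeletal muscle score spreads widely within groups and differs between strains, and in Cop it is higher with NMU without overlap.

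Lipid synthesis genes fell. Of 21 tested genes of fatty acid synthesis, 16 fell and none rose, 15 of them without overlap in either strain, and the list median was -0.74 (-0.55 in F344 and -1.07 in Cop). Of 19 tested genes of cholesterol synthesis, 16 fell and none rose, 10 without overlap, with a median of -0.65, and all 19 were lower in both strains. Over all 11149 genes tested, 606 rose and 391 fell and the median was 0.04. The lists share Insig1.

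The promoters of these genes are shown first because the fall was shared by so many of them. RefSeq promoter windows, 250 bases before to 50 after the start on GRCr8, were matched for 590 of the 720 common genes and for 25 of the 31 called lipid genes. The NF-Y box, CCAAT on either strand, occurs in many promoters. It was found in 20 of the 25 windows (80.0%), against 37.5% of tested genes and 37.7% of all 27457 promoters. It was also frequent in other lists, in 6 of 6 windows of called endoplasmic reticulum chaperones, 3 of 4 of heat shock genes and 3 of 5 of clock genes, and it was in 38.3% of windows of all common genes that fell. The shown motif was chosen after the matches were seen, and the shown lipid genes were taken from the 20 windows that hold it. These genes therefore cannot show how often the box occurs. Elovl6, Acaca and Me1 fell further than Gpam and were not among them. The sterol element CACCCCAC, searched on both strands, was found in 0 of the 25 windows and in 2.57% of all promoters. Below are the 250 bases before the start of 4 lipid genes that fell, 5′ to 3′ on the gene's strand, with the NF-Y box in capitals (CCAAT or, reversed, ATTGG): Pnpla3 (chr7:117173278-117173527, plus strand), Insig1 (chr4:8057770-8058019, minus strand), Gpam (chr1:264175912-264176161, minus strand) and Acly (chr10:85963632-85963881, minus strand).
Pnpla3: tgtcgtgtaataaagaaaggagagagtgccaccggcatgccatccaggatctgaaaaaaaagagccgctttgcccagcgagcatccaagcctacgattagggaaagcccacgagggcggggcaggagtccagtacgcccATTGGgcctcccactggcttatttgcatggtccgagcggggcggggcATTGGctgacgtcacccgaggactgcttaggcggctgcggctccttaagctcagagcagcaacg
Insig1: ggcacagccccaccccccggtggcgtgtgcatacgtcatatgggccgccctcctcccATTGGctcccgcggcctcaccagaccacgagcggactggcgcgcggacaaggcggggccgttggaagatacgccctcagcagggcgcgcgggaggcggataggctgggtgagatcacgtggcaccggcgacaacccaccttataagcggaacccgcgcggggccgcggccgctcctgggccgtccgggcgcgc
Gpam: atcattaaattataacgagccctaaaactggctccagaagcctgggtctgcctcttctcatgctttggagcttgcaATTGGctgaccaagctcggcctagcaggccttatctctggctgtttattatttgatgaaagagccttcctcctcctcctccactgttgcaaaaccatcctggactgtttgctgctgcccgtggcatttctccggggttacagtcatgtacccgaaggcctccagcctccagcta
Acly: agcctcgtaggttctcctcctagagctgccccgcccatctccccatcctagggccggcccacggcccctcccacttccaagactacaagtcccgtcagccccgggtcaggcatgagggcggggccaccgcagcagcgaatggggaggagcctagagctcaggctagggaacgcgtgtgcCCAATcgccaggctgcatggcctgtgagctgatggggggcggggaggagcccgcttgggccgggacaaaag
The Pnpla3 window holds 2 boxes, beginning 111 and 64 bases before the start. The single box begins 193 bases before the start in Insig1, 174 in Gpam and 71 in Acly. None of these boxes overlapped another motif searched, and a match does not show that a factor binds.

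Pnpla3, a lipid-droplet protein and an SREBP target, had the largest fall. Its probe set read 10.82, 10.89 and 10.97 in F344 controls and 6.15, 7.82 and 9.01 with NMU. In Cop it read 9.28, 8.33 and 8.63 in controls and 5.33, 4.80 and 4.40 with NMU. All NMU arrays lay below all controls of their strain, and F344 NMU replicate 3 was the least reduced. The change was -3.57 (SE 0.41, limma adjusted p = 0.00124), -3.23 in F344 and -3.90 in Cop.

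Insig1, which holds SREBP in the endoplasmic reticulum and is itself induced by it, changed equally in both strains. Controls read 11.89, 11.87 and 11.92 in F344 and 11.60, 11.10 and 10.93 in Cop. With NMU the values were 9.54, 10.08 and 11.00 in F344 and 9.60, 9.45 and 9.52 in Cop. The groups did not overlap, although F344 NMU replicate 3 again lay nearest to its controls. The change was -1.69 (SE 0.20, adjusted p = 9.74e-04), with -1.69 in each strain.

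Elovl6, the elongase that turns palmitate into stearate, read 10.41, 10.59 and 10.47 in F344 controls against 8.78, 9.39 and 8.83 with NMU. In Cop the values were 8.34, 7.44 and 7.95 against 5.79, 5.92 and 5.78. The groups were far apart in each strain, and the Cop controls lay below the F344 NMU arrays, a strain difference of level that the covariate removes. The change was -1.78 (SE 0.16, adjusted p = 2.62e-04), and a second probe set changed by -1.76.

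Acaca, acetyl-CoA carboxylase, the committed step of fatty acid synthesis, changed by -1.36 (adjusted p = 0.00275). Me1, malic enzyme, a source of NADPH, changed by -1.34 (adjusted p = 0.0146). Gpam, which adds the first acyl chain to glycerol phosphate, changed by -1.28 (adjusted p = 6.50e-04). Fasn, fatty acid synthase, fell in both strains without overlap, from 13.37, 13.23 and 13.28 to 12.83, 12.97 and 12.77 in F344 and from 12.34, 12.39 and 12.39 to 10.54, 10.40 and 10.30 in Cop. Its change of -0.43 in F344 and -1.96 in Cop differed between strains (limma adjusted p = 6.59e-05). Scd2, a desaturase, was -0.74, and the transcription factor gene Mlxipl was -1.06. Srebf1 was at -0.61, with 0.01 in F344 and -1.23 in Cop, and did not pass the test.

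In the sterol branch Nsdhl, a C4 demethylation enzyme, read 8.86, 9.02 and 9.03 in F344 controls and 7.65, 8.0 and 8.13 with NMU, and 8.54, 8.23 and 8.30 against 7.36, 7.43 and 7.50 in Cop. The 6 NMU arrays lay below all 6 controls whatever the strain. The change was -0.99 (SE 0.09, adjusted p = 2.62e-04). Fdps, which makes farnesyl pyrophosphate, changed by -0.86 and Cyp51, lanosterol demethylase, by -0.81. Lss, which closes the sterol rings, changed by -0.65. Srebf2 changed by -0.65 with some overlap of arrays.

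Genes that store or burn lipid moved in part. Of 22 adipocyte genes 6 fell and none rose: Agpat2 (-1.16) and Dgat2 (-1.10) of triglyceride synthesis, Gpd1 (-0.92), Acsl1 (-0.57), Slc2a4, the insulin-responsive glucose transporter (-0.53), and Lpl (-0.33). The Acsl1 call was lost in 5 of 12 fits without 1 array, with adjusted p up to 0.0867, in each case a Cop array. The defining adipocyte genes Adipoq and Fabp4 were at 0.01 and 0.05 and did not pass the test. Angptl4, the fasting-induced inhibitor of lipoprotein lipase, was among the largest rises, from 7.51, 8.04 and 8.0 to 10.74, 9.07 and 8.44 in F344 and from 8.79, 8.12 and 8.70 to 11.63, 11.32 and 11.43 in Cop. No NMU array overlapped the controls of its strain, and in F344 replicate 1 rose most. The change was 2.24 (SE 0.38, adjusted p = 0.00819). Of 20 fasting and PPAR target genes 5 rose and 1 fell. Cpt1a, which carries fatty acids into mitochondria, rose by 1.00 and Angptl8, an insulin-induced partner of Angptl4, fell by 2.67, both with overlap in a strain, and the Angptl8 call was lost in 6 of 12 fits without 1 array. Pdk4, which spares glucose, was at 2.43 with an adjusted p lost in 10 of those fits. Of 12 glycogen enzymes 3 fell, led by Ppp1r3b, a glycogen-targeting subunit of protein phosphatase 1, at -1.71 (adjusted p = 0.0121).

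The T and NK cell score fell with the lipid genes in the same arrays, and its part in the lipid result was not tested. In the fit with that covariate Elovl6 changed by -1.43 (adjusted p = 0.0393), Nsdhl by -1.07 (adjusted p = 0.0221), Insig1 by -1.62 (adjusted p = 0.0879) and Pnpla3 by -2.91 (adjusted p = 0.112). The second Elovl6 probe set changed by -1.38 there and lost its call (adjusted p = 0.0773).

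**Figure D3:**
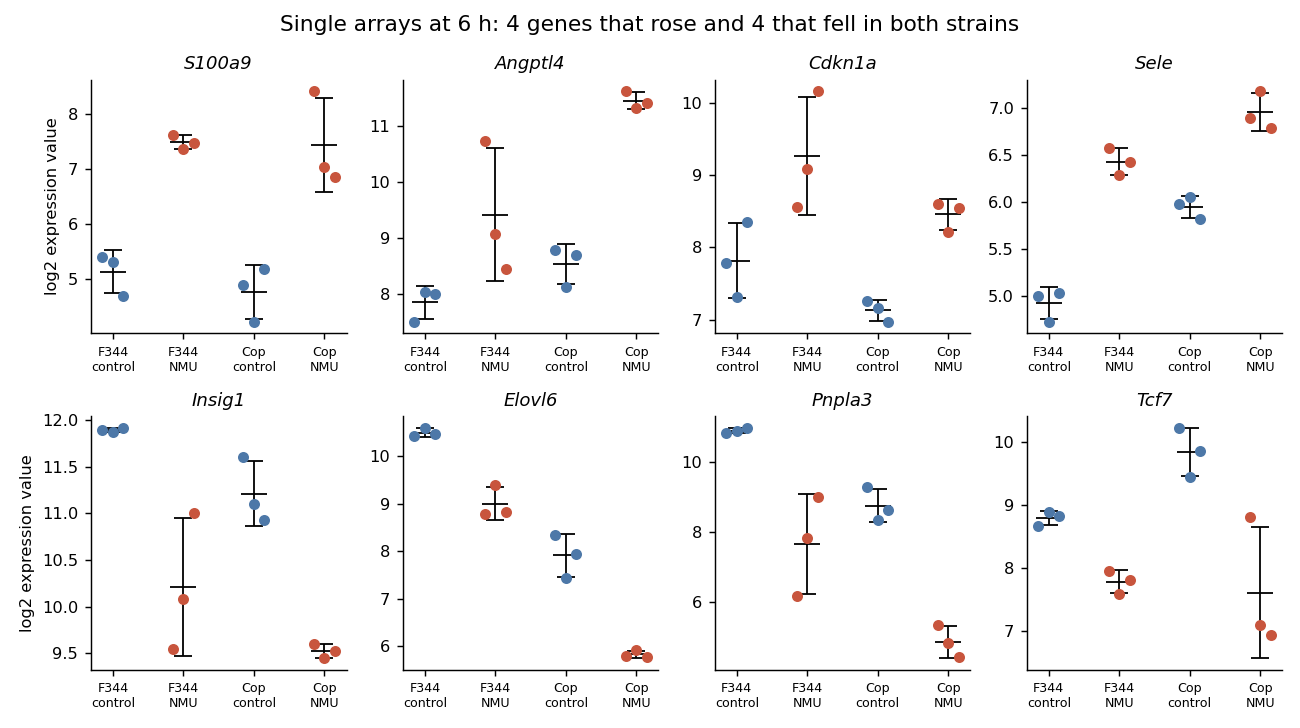
Log2 expression values (vertical axis, own scale in each panel) of single arrays for 4 genes that rose and 4 that fell, in F344 and Cop controls (blue) and NMU groups (red), with mean and SD of 3 arrays. In each panel the NMU arrays lie on 1 side of the controls of the same strain.

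T cell genes fell. Of 21 tested T and NK cell markers 15 fell and none rose, 14 without overlap in either strain, with a median of -1.16 (-0.68 in F344 and -1.60 in Cop). Tcf7, a transcription factor of naive T cells, read 8.67, 8.89 and 8.83 in F344 controls and 7.94, 7.58 and 7.81 with NMU. In Cop it read 10.22, 9.45 and 9.85 in controls and 8.81, 7.08 and 6.93 with NMU. The groups did not overlap, Cop controls were the highest of all, and Cop NMU replicate 1 kept the highest level of its group. The change was -1.62 (SE 0.34, adjusted p = 0.0163).

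Receptor and signalling genes moved with it. Cd5, a receptor of T cells, changed by -1.66 (adjusted p = 0.0115), and Cd247, the zeta chain of the T cell receptor complex, by -1.78. Lck, the kinase at its coreceptors, changed by -1.30 (adjusted p = 0.00731), and Skap1, an adaptor for T cell adhesion, by -1.62 (adjusted p = 0.0073). Cd8a and Cd8b, the coreceptor of cytotoxic T cells, were at -1.05 and -0.88, and Prf1, perforin, at -1.32. Nkg7 (-0.18), Gzmk (-0.16) and Gzma (-0.32, with 0.35 in F344) of cytotoxic and NK cells did not pass the test. The calls of Cd3g, Cd3d, Cd3e, Lef1 and Sit1 were lost without Cop control replicate 1 and without replicate 3, and those of Cd3g, Cd3d and Cd3e also without Cop NMU replicate 2; the highest adjusted p was 0.078. No B cell marker of 11 was called, with a median of -0.44 (-0.07 in F344 and -0.76 in Cop), and Cd74 was at 0.04.

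Of 19 inflammatory cytokine and chemokine genes 3 rose (15.8%), 1 of them without overlap, and none fell, while 5.44% of all genes tested rose. The 3 include Nfkbiz and Il18, whose calls were lost in 6 and 8 of 12 fits without 1 array. S100a9, a calgranulin of neutrophils and monocytes that is on the list of neutrophil markers, had the largest rise among common probe sets, from 5.40, 5.30 and 4.68 to 7.62, 7.37 and 7.46 in F344 and from 4.88, 4.22 and 5.17 to 8.42, 7.04 and 6.85 in Cop. The 6 NMU arrays lay above all 6 controls, with Cop NMU replicate 1 the highest. The change was 2.52 (SE 0.26, adjusted p = 5.36e-04). S100a8, its partner subunit, changed by 2.20 (adjusted p = 6.81e-04). Il1r2, the decoy receptor for interleukin 1, was at 1.47 (adjusted p = 0.00475) and Ccl9, a chemokine, at 1.11, whose call was lost in 7 of 12 fits without 1 array. Of the 10 neutrophil markers on the array 4 passed the level filter, S100a8, S100a9, Lcn2 and Il1b, and 6 did not: Csf3r, Cxcr2, Camp, Mmp8, Mmp9 and Np4. The score of those 4 lay between -1.49 and -1.35 in F344 controls, 0.05 and 0.24 in F344 NMU, -0.25 and 0.06 in Cop controls, and 0.94 and 2.14 in Cop NMU. The part of neutrophil number in this rise was not tested.

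Genes of activated endothelium rose in part. Sele, E-selectin, which endothelium makes when activated to catch leukocytes, read 5.0, 4.73 and 5.03 in F344 controls and 6.57, 6.28 and 6.43 with NMU. In Cop the values were 5.98, 6.05 and 5.82 against 6.89, 7.18 and 6.79. Replicates lay close together and no groups of a strain overlapped. The change was 1.25 (SE 0.12, adjusted p = 2.62e-04). Edn1, the constrictor endothelin 1, changed by 0.74 (adjusted p = 0.00386), Thbd, thrombomodulin, by 0.59 and Procr, the protein C receptor, by 1.00 (adjusted p = 0.00149). On the list of activated endothelium, which does not hold every gene named above, 4 of 14 genes rose. Among them was Adamts4, at 0.24 in F344 and 1.58 in Cop, whose call was lost in 5 of 12 fits without 1 array. Vcam1 (0.14), Selp (0.16) and Icam1 (0.31) did not pass the test. The endothelial markers Cldn5, Esam and Pecam1 rose by 0.40, 0.35 and 0.33, and Kdr, Vwf and Flt1 were between -0.26 and -0.16, not called.

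Of 16 metalloproteinases and inhibitors 6 rose. Mmp12, a macrophage elastase, rose from 5.84, 6.55 and 6.24 to 7.78, 8.0 and 8.13 in F344 and from 7.84, 7.33 and 7.10 to 8.53, 8.14 and 8.14 in Cop, a change of 1.30 (SE 0.19, adjusted p = 0.00275) with no overlap. Mmp3, stromelysin, was at 1.63, but without Cop control replicate 3 its adjusted p was 0.0504. Of 18 macrophage markers 4 rose, 1 without overlap: Cd163, a scavenger receptor, at 0.69. Adgre1 and Csf1r, which define the lineage, were both at 0.06 and not called. Of 27 interferon-stimulated genes 8 rose, 3 without overlap: Rsad2, viperin (1.34, adjusted p = 0.00221), Ifit3 (0.98, adjusted p = 0.00381) and Gbp2 (0.53, adjusted p = 0.0044). Cxcl10, a ligand of Cxcr3, was at 1.60 (adjusted p = 0.0134) with overlap in F344.

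The p53 targets rose in part. Of 24 tested, 9 rose and none fell, 5 without overlap, 20 were higher in both strains, and the median was 0.35. Cdkn1a, the p21 inhibitor of cyclin-dependent kinases, read 7.78, 7.31 and 8.36 in F344 controls and 8.56, 9.09 and 10.17 with NMU, and 7.26, 7.16 and 6.97 against 8.61, 8.22 and 8.55 in Cop. F344 replicate 3 was the highest array in each group and the groups just cleared each other in F344. The change was 1.39 (SE 0.24, adjusted p = 0.00692), 1.45 in F344 and 1.33 in Cop. Aen, an apoptosis-enhancing nuclease, changed by 0.82 (adjusted p = 0.00497) and Fas, the death receptor, by 0.80 (adjusted p = 0.00601). Ephx1, an epoxide hydrolase, changed by 1.05 (adjusted p = 3.69e-04). Ccng1, cyclin G1, was at 0.81 (adjusted p = 0.0207), with overlap in F344 and its call lost without Cop control replicate 1 or 3. Gdf15 (1.07), Mdm2 (0.59), Bbc3 (0.35), Sesn1 (-0.18) and Gadd45a (-0.16) did not pass the test.

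Among 20 tested repair genes for alkylated and damaged bases 1 rose (5%), near the 5.44% of all genes tested that rose. It was Mpg, the glycosylase that removes methylated purines, at 0.46 (adjusted p = 0.026, lost in 4 of 12 fits without 1 array). Mgmt, which removes methyl groups from guanine, read 7.91, 7.95 and 7.95 in F344 controls and 7.63, 8.19 and 8.14 with NMU, and 7.56, 7.54 and 7.63 against 7.52, 7.30 and 7.63 in Cop. The groups overlapped, and its change was -0.02 (SE 0.10, adjusted p = 0.909).

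Of 23 glucocorticoid-induced genes 10 rose and none fell, 6 without overlap, with a median of 0.47. Mt2A, a metallothionein, rose from 10.22, 9.80 and 10.12 to 11.60, 11.27 and 10.57 in F344 and from 10.77, 10.49 and 10.15 to 11.99, 11.44 and 11.43 in Cop, a change of 1.12 (SE 0.17, adjusted p = 0.00369). Klf9 (0.47), Cebpd (0.67) and Glul (0.53) rose as well. Tsc22d3 (0.15) and Fkbp5 (-0.04), both strong glucocorticoid targets, were not called, and the other Fkbp5 probe set had the opposite sign. Of 23 immediate early genes 9 rose, 4 without overlap: Nr4a3 (1.53), Ier3 (1.01), Myc (0.56) and Fosl2 (0.43, call lost in 9 of 12 fits). Nr4a3, an orphan nuclear receptor, rose more in F344 (2.18) than in Cop (0.88), with an adjusted p of the difference of 0.0471. A second Nr4a3 probe set was at 0.32 and not called, with 0.40 in F344 and 0.24 in Cop. Of 18 clock genes 5 rose: Dbp (0.87), Per1 (0.60) and Nr1d2 (0.38) without overlap, Nr1d1 (0.80) and Per3 (0.53) with it, and the last pair lost their calls in 9 of 12 fits each. Nupr1, a small stress-induced chromatin protein, rose with the smallest adjusted p, from 8.46, 8.56 and 8.35 to 9.63, 9.52 and 9.46 in F344 and from 9.23, 9.44 and 9.13 to 10.05, 10.12 and 10.22 in Cop. Its replicates agreed closely in every group. The change was 0.97 (SE 0.08, adjusted p = 9.33e-05), kept in every fit without 1 array. Tenm4, a teneurin adhesion protein, shared that adjusted p and changed by -1.37, and Fam13a changed by 1.23.

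Some chaperone genes fell. Of 18 heat shock genes 4 fell and none rose, and of 22 chaperones of the endoplasmic reticulum 7 fell and none rose. Hsph1, a nucleotide exchange factor for Hsp70, fell from 9.24, 9.50 and 9.24 to 9.16, 8.80 and 9.13 in F344 and from 9.99, 10.06 and 10.08 to 8.59, 8.66 and 8.66 in Cop. F344 separated by a narrow margin and Cop by a wide one. The change was -0.85 (SE 0.17, adjusted p = 0.0129). Calr, calreticulin, changed by -0.33 and Hyou1 by -0.62. The heat shock pair GAANNTTC, searched on both strands, was in 3 of the 4 windows of called heat shock genes and in 8.34% of all promoters. The Hsph1 promoter, 250 bases before the start on GRCr8 at chr12:10427118-10427367, plus strand, is shown 5′ to 3′ because that pair, in capitals, begins 31 bases before the start.
Hsph1: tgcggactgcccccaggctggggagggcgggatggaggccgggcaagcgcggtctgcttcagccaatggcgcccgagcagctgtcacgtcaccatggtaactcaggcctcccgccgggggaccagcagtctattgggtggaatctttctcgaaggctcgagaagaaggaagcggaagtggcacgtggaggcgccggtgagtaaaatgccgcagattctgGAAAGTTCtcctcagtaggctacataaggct
Among genes of S phase 7 of 28 rose, 3 without overlap: Ccne2, cyclin E2 (0.97), Rpa2 (0.48) and Pcna, the replication clamp (0.37). The Ccne2 call was lost without Cop control replicate 1 or 3, and its rise differed between strains. The luminal (22 tested), milk protein (12), skeletal muscle (25) and ribosome biogenesis (27) lists had no called gene. The skeletal muscle median was still 2.01 in Cop, against -0.18 in F344.

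**Figure D4:**
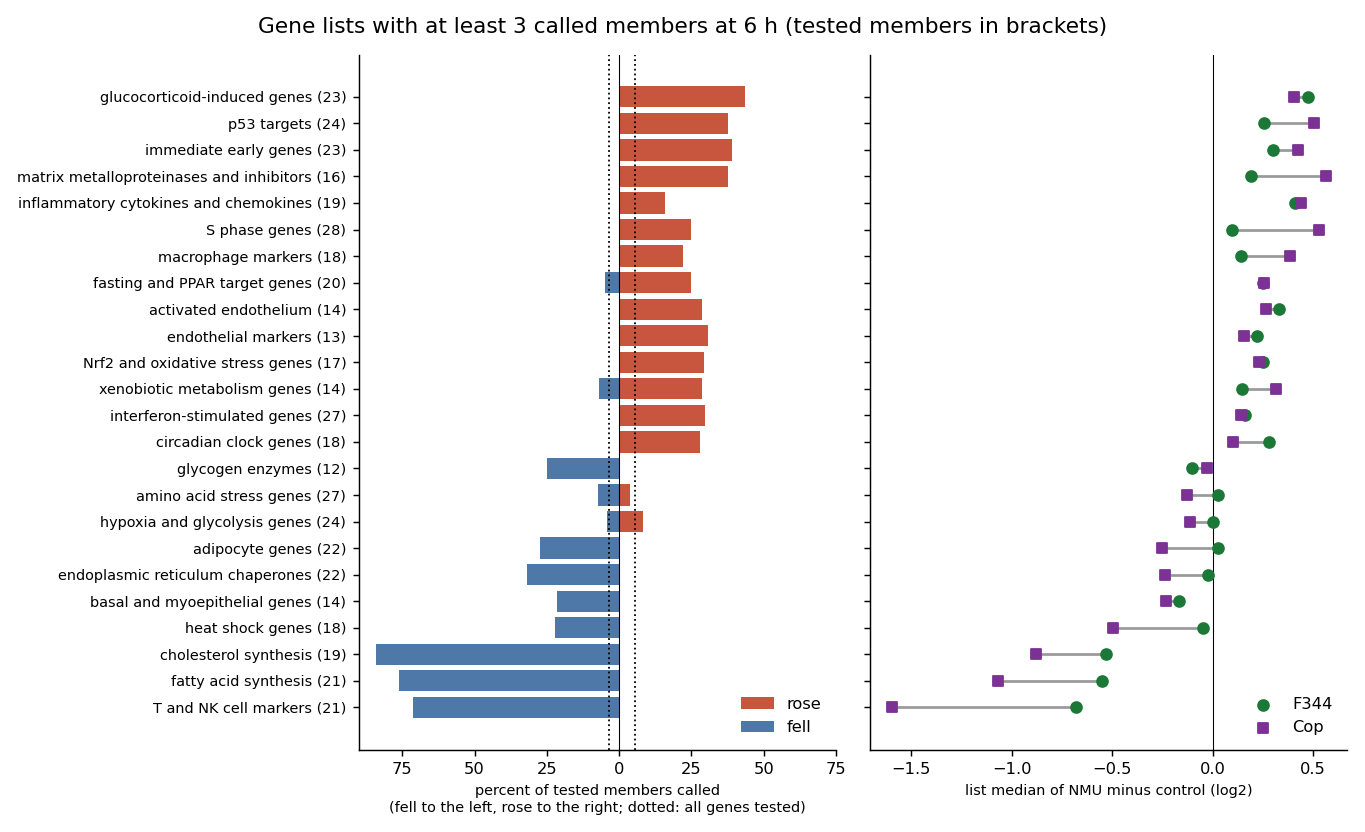
Left, percent of each list's tested members (number in brackets) called lower (blue, to the left) or higher (red, to the right), with dotted lines for all genes tested; right, the list median of NMU minus control in log2 for F344 (circles) and Cop (squares). Cholesterol synthesis, fatty acid synthesis and T and NK cell markers have the largest shares of called falls, with lower medians in Cop than in F344.

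The response was set against later times by a test of the difference in 1 model of all 36 arrays. Of 20748 probe sets 343 (1.65%) were called at 1 d and 4180 (20.1%) at 30 d. The NMU effect at 1 d differed from that at 6 h for 114 (0.549%) and the effect at 30 d for 2207 (10.6%). The count of 114 was 71 without Cop control replicate 1, 73 without Cop control replicate 2 or Cop NMU replicate 2, and 75 without Cop NMU replicate 1. Of the 985 common probe sets, 797 kept their sign at 1 d, 61 were called there, 60 with the same sign, and 44 differed from 6 h. At 30 d 628 kept their sign, 282 were called, 223 with the same sign, and 339 differed. The median of rises was 0.12 at 1 d and 0.11 at 30 d, and that of falls -0.18 and -0.10; since the members were chosen at 6 h, a smaller later median carries no test.

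S100a9 was at 0.21 at 1 d (difference from 6 h adjusted p = 0.00130) and Sele at 0.10 (adjusted p = 0.0324). Mt2A was at -0.09 (adjusted p = 0.00914) and Nupr1 at 0.12 (adjusted p = 0.0152). The genes of this paragraph were chosen with their 6 h changes known, and the difference reuses the 6 h arrays. That choice favours a smaller later effect, so the p-values of these rises and falls cannot decide whether they declined. Among falls Insig1 was at -0.48 (adjusted p = 0.0171) and Tenm4 at -0.34 (adjusted p = 0.0152). Other members were still called at 1 d: Elovl6 at -1.45, Acaca at -1.08, Cyp51 at -0.54 and Cdkn1a at 0.68. At 30 d Elovl6 was at 0.04 and Insig1 at 0.38, both different from 6 h, while Cdkn1a was called at 0.64. Tcf7 and Cd5 were at -0.45 and -0.65 at 1 d, not called, and at -1.73 and -1.97 at 30 d, called. Neither was called different from 6 h by limma's test of the difference, at 1 d (adjusted p = 0.616 and 0.665) or at 30 d (adjusted p = 0.943 and 0.812). Interferon-stimulated genes had a median of 0.20 at 6 h and 0.89 at 1 d. Cxcl11, a ligand of Cxcr3, was larger at 1 d, at 1.04 and then 3.53 (difference adjusted p = 0.022), and its call at 6 h was lost without Cop control replicate 3 and without Cop NMU replicate 2.

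**Figure D5:**
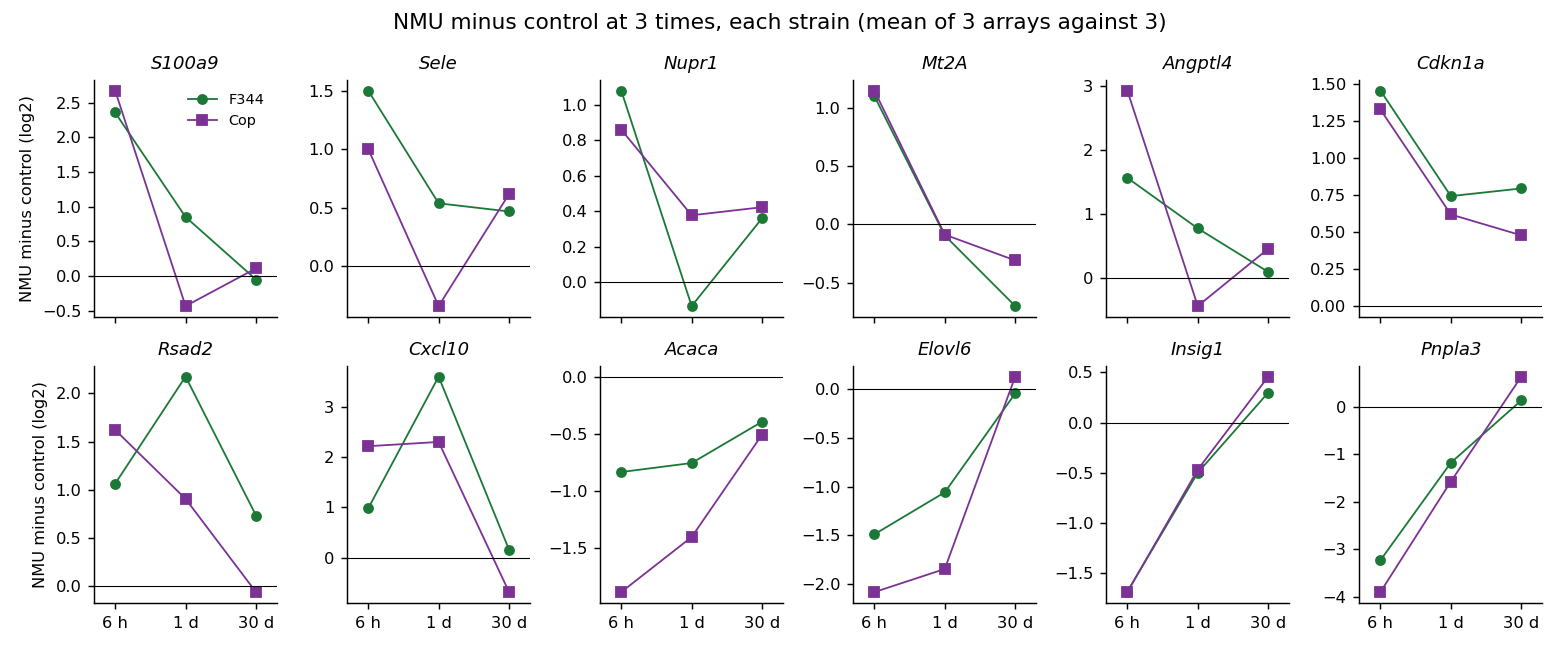
NMU minus control (vertical axis, log2, own scale in each panel) at 6 h, 1 d and 30 d in F344 (circles) and Cop (squares) for 12 genes, each point a mean of 3 arrays against 3. S100a9, Sele, Nupr1 and Mt2A are highest at 6 h, Elovl6 and Insig1 are near 0 or above at 30 d, and Cxcl10 in F344 is highest at 1 d.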

How the data were processed

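Biotin-labelled cRNA from rat mammary gland was hybridised to Affymetrix arrays, per the labels' protocols, and the submitters' processing notes name GCOS with no version. The deposited values are the authors' log2 expression values per probe set; how signals were summarized and normalized is not stated, so the values were used as deposited. The number of arrays limits the precision. Replicates are called biological in the labels, and p-values measure the spread between these arrays.

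Of 31099 probe sets, 57 manufacturer controls were left out, and 19597 lay above the 40th percentile of their own array on at least 3 of 12 arrays. Names come from GEO's platform annotation, with 20832 probe sets of 1 symbol, 436 of several and 9831 of none. 20764 symbols matched a RefSeq gene by Entrez identifier. A list gene is its probe set of highest mean.

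limma 3.58.1 in R 4.3.3 fitted strain and NMU to the 12 arrays, with trend and robust moderation, two-sided, and Benjamini-Hochberg adjustment over all tested probe sets. Models with 4 group means gave effects within strains and their difference, and a model of 36 arrays gave the differences between times. The fits were tested on simulated data. Members, lists and tests were chosen with earlier results of these data known. Named genes are the 20 largest common rises and falls, up to 6 called members of smallest p of each list, and 11 genes always examined; list members outside that rule, and genes named as not called, were chosen after their values were seen. Alternatives were quantile normalization, other filters, plain moderation, other models, the replicate number as a block and leaving out each array. Same-numbered arrays had correlations of deviations from -0.02 to 0.51, with 1 of 6 pairs under 0.1, so the numbers were not taken to pair arrays, although in Cop alone all 3 pairs exceeded it.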

Additional observations from a re-analysis of the deposited data

Results flagged for a closer look

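Among the named genes, the change with NMU differed in size between Cop and F344 for 14, by limma's test of the difference itself. The values are the Cop change minus the F344 change in log2. Of genes lower with NMU in both strains, the difference was negative, a larger fall in Cop, for Fasn by -1.53 (adjusted p = 6.59e-05), Dgat2 by -1.38 (adjusted p = 4.90e-04), Pygl by -1.18 (adjusted p = 0.00154), Hsph1 by -1.11 (adjusted p = 0.00172). The same held for Gpd1 by -1.05 (adjusted p = 0.00556), Acsl1 by -0.85 (adjusted p = 0.0207), Hspa5 by -0.65 (adjusted p = 0.0231) and Cbr3 by -1.40 (adjusted p = 0.0257). Aldh18a1 fell more in F344, with a difference of 0.64 (adjusted p = 0.0384). Of genes higher with NMU in both strains, the rise was larger in Cop for Hbb by 1.73 (adjusted p = 0.0097), Adamts4 by 1.34 (adjusted p = 0.0106), Ccne2 by 1.34 (adjusted p = 0.0174) and Cd300a by 1.10 (adjusted p = 0.0191). Nr4a3 rose more in F344, with a difference of -1.29 (adjusted p = 0.0471), while its second probe set was at 0.40 in F344 and 0.24 in Cop. Leaving out 1 array gave 230 to 802 calls for this difference over all tested probe sets.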

How the results depend on the processing

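Of 146 called named probe sets, 96 kept their call whichever array was left out. The count of 1545 became 1559 with quantile normalization (1288 shared), 1436 with the replicate block (1170 shared), 1413 in all 36 arrays and 2292 with 4 group means. With the T and NK cell score as a covariate, added after the data were seen, the count was 69. Of these, 60 had the same sign in both strains and 43 were common. Cd3g turned to 0.11, Cd3d to 0.0446, Cd3e to 0.0382, Sit1 to 0.0336 and Per3 to -0.0172. Cd3g, Cd3d and Cd3e are genes of that score, so this fit sets them in part against themselves and cannot show how they changed. The cause for Sit1 and Per3 was not tested. Leaving out 1 array gave 844 to 1503 calls, both over all calls and over those of the same sign, 709 to 1180 for common ones, 37 to 295 in F344, 1170 to 2401 in Cop, 230 to 802 for the strain difference, 71 to 129 for 1 d minus 6 h and 1625 to 2239 for 30 d minus 6 h. F344 control replicate 1 and Cop control replicate 2 correlated better with another number than with their own. The replicate block, by a number the labels give no meaning, gave 811 calls in F344, 2863 in Cop, 929 for the strain difference, 54 for 1 d minus 6 h and 1819 for 30 d minus 6 h. It ended the main-effect calls of 34 named probe sets, among them Fasn (adjusted p = 0.0745), Dgat2 (0.0733), Pygl (0.065), Hsph1 (0.064), Cxcl10 (0.059), Mmp3 (0.0589) and Gpd1 (0.0544), with the same direction. Of the lists, 13 counts and 3 medians moved by more than the limits set. Signal over background limits the 11445 probe sets left out as dim.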
